A study of Homo sapiens with 2 samples.

Results

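The genes described here encode regulators of pre-mRNA splicing, chosen by gene name only: the SR proteins (SRSF), TRA2A and TRA2B, the CLK kinases, the hnRNP proteins, the PTBP proteins, RBFOX2, both U2AF subunits and the SF3A and SF3B subunits. In all, 97 of 24124 gene names and 667 of 134092 listed transcripts fit these names. Of the 97, 56 are genes that the GENCODE annotation does not class as pseudogenes, and 41 are pseudogenes, all of them named for hnRNP genes. SAS cells come from an oral cancer and are an established line. The ASC cells expressed, stably, the ASC sequence from plasmid pLKO.AS2, a lentiviral vector, and the control cells held the empty vector. Both were kept in DMEM with 10% FBS, G418 at 200 µg/ml and puromycin at 2 µg/ml, so the controls received the same selection. ASC is the inflammasome adaptor protein, encoded by PYCARD. Each group is 1 library from 1 stable line, and the labels do not give the promoter or whether the lines are clonal.

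Poly(A) RNA was sequenced without strand information, so overlapping and antisense genes cannot be separated. The ASC library lists 31426491 estimated reads and the control library 31289581. Levels are RPKM (reads per length of transcript and depth of library), summed over the transcripts of a gene. PYCARD stood at 266.5 RPKM in the ASC library and 1.36 RPKM in the control library, in the direction of the labels. All 7 epithelial markers were present, 4 with a log2 ratio above 0 and 3 below. EPCAM, among the 4, was near even at 193.5 RPKM with ASC and 193.3 RPKM without. KRT5 stood at 311.0 RPKM with ASC and 421.0 RPKM without, and KRT14 at 82.3 and 61.2 RPKM. The 4 fibroblast markers summed to 0.668 and 0.273 RPKM and the leukocyte markers to 0.446 and 0.322 RPKM. The endothelial markers summed to 2.84 and 2.13 RPKM. Since each group has a single library, nothing here has a test, a p-value or a replicate check. Every 95% interval below is an exact Clopper-Pearson interval and covers counting error only, not error in assigning reads to similar transcripts.

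SR proteins bind exonic enhancers and mostly favour inclusion of an exon, while many hnRNP and PTBP proteins bind silencers and favour skipping. The CLK kinases phosphorylate the arginine and serine rich tails of SR proteins. U2AF and the SF3A and SF3B complexes recognise the polypyrimidine tract, the 3′ splice site and the branch site. Many of these genes limit their own level by splicing in an exon with a premature stop codon, which sends the transcript to nonsense-mediated decay, or by keeping an intron. A level summed over all transcripts therefore mixes messages that make protein with messages that do not.

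Gene levels of the splicing regulators were close in the 2 libraries. Of the 97 names, 60 reached 1 RPKM in either library and were compared with the other genes as log2(RPKM + 1), a scale that shrinks the differences of weakly expressed genes. None of the 60 was 2-fold higher or 2-fold lower in the ASC library, where 0.617% and 0.265% of all 12471 genes compared were. On the same scale, 1 of the 60 was at least 25% higher in the ASC library and 3 were at least 20% lower (the same fold in either direction), against 8.88% and 8.72% of all genes. PTBP3 was the one higher, and CLK4, U2AF1 and the pseudogene HNRNPA1P33 were the ones lower. Among the 54 that are not pseudogenes, 22 log2 ratios were above 0 and 32 below, where 52.0% of all genes were above 0 and 48.0% below. Their median log2 ratio was -0.06 against 0.01 for all genes, and they ranged from -0.36 to 0.33. Less than 25% higher and less than 20% lower lay 94.4% of the 54 and 82.4% of all genes. These genes were also read more deeply: their median was 6573 reads per gene in the control library against 979 over all genes. The part of this depth in their narrow range was not tested.

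**Figure D1:**
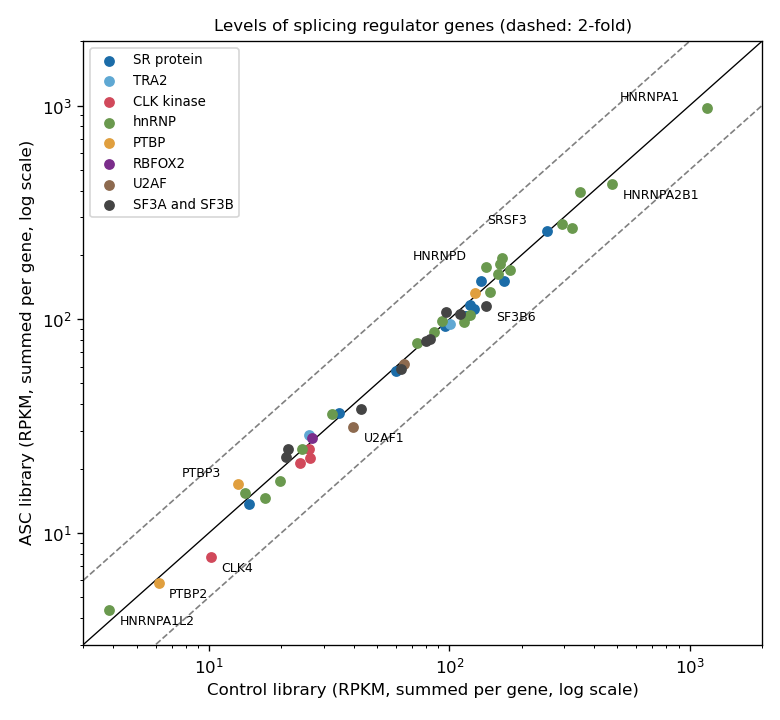
Summed RPKM of the 54 compared splicing regulators that are not pseudogenes, control library on the horizontal axis and ASC library on the vertical axis, both on log scales; 1 point is 1 gene, colours mark the family, the solid line marks equal levels and dashed lines 2-fold. All 54 points lie between the dashed lines, from HNRNPA1L2 at 3.85 RPKM to HNRNPA1 at 1176.2 RPKM in the control library.

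The SR proteins as a family summed to 1194.7 RPKM in the ASC library and 1246.9 RPKM in the control library. Of 11 genes, 3 had a log2 ratio above 0 and 8 below, with a median of -0.06 and a range from -0.19 to 0.15. SRSF3, the most abundant and a factor in both splicing and mRNA export, stood at 259.1 and 254.6 RPKM, a log2 ratio of 0.02. Counted as reads it was higher by more, 12770.9 against 11559.2, a log2 ratio of depth-scaled reads of 0.14 (interval 0.10 to 0.17). SRSF1, the founding SR protein, stood at 103.2 RPKM with ASC and 117.5 RPKM without, and SRSF11 at 111.0 and 126.6 RPKM, both with a log2 ratio of -0.19. SRSF5 stood at 150.4 and 169.3 RPKM, a log2 ratio of -0.17. SRSF9, at 151.1 and 135.7 RPKM, had the highest ratio of the family at 0.15. SRSF4, SRSF8, SRSF10, SRSF2 and SRSF6 lay within 0.09 of 0, and SRSF7 was at -0.16. None was 25% higher or 20% lower.

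Premature-stop exons differed in direction from one SR gene to the next. Their inclusion was measured as the RPKM of annotated transcripts that hold the exon, over that of transcripts that hold or skip it. The sequences below show how soon after the start of the exon the reading frame ends. Each runs from the first base of the exon to the stop codon, which is in capitals, read from the GENCODE transcripts on hg38.
SRSF3 premature-stop exon, chr6:36599821-36599854, plus strand: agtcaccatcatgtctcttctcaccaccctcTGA
SRSF7 premature-stop exon, chr2:38749319-38749346, minus strand: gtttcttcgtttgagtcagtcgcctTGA
SRSF6 premature-stop exon, chr20:43459153-43459304, plus strand: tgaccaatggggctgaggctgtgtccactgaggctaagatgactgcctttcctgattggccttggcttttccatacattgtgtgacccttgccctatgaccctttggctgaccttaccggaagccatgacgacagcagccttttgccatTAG
TRA2B premature-stop exon, chr3:185931772-185931852, minus strand: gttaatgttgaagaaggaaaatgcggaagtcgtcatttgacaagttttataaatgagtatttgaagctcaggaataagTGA
The stop codon ends at base 34 of the 456-base exon of SRSF3, base 28 of the 449-base exon of SRSF7, base 152 of the 268-base exon of SRSF6 and base 81 of the 276-base exon of TRA2B.

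The SRSF3 exon was included more in the ASC library, at 23.5% of RPKM against 14.2% in the control library. The transcript that holds it had 1395.0 estimated reads with ASC and 802.9 without, while the transcripts that skip it, which hold all the protein-coding RPKM of the gene, stood at 116.4 and 124.1 RPKM. As a share of reads, inclusion was 18.3% (interval 17.5 to 19.2) against 11.6% (10.9 to 12.4), so the intervals did not overlap. Such separation is common at this depth: it held for 32.8% of 12885 skipped exons of all genes and for 37 of 80 (46.2%) of those in splicing regulators, which had more reads (median 3794.0 against 748.4 per exon in the control library). A second premature-stop exon of SRSF3, of 98 bases, was included at 6.10% with ASC and 7.90% without.

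SRSF6 and SRSF7 lay the other way. Inclusion of the SRSF6 exon was 64.6% with ASC and 68.9% without, and its share of reads was 41.5% (40.5 to 42.6) against 46.2% (45.2 to 47.3). For SRSF7 the 449-base exon was at 16.3% and 19.2%, and all decay transcripts of the gene together held 43.4% of its RPKM with ASC and 50.7% without. In both genes the summed RPKM was lower in the ASC library and the protein-coding transcripts were higher: 51.7 against 48.4 RPKM for SRSF7 and 32.7 against 30 RPKM for SRSF6. Counted as reads, the SRSF6 sum was near even, 8631.2 with ASC and 8623.0 without. The interval of its log2 ratio of depth-scaled reads, -0.05 to 0.04, held 0. The direction given for these genes therefore depends on whether decay transcripts are counted, and for SRSF6 also on the scale.

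SRSF2 showed the largest shift of a single coding transcript in the family. ENST00000359995.9 held 50.5% of SRSF2 RPKM with ASC and 60.9% without, with 4042.0 and 5105.2 reads. ENST00000392485.2, also protein coding, held 30.4% with ASC and 23.9% without, and the decay transcripts 14.3% and 11.1%. In SRSF10, a regulator that represses splicing when dephosphorylated, the adjacent coding exons of 51 and 54 bases were at 90.2% and 90.4% with ASC against 83.2% and 85.3% without, both measured against the same skipping transcript. The SRSF4 premature-stop exon was at 11.1% and 11.3%, and that of SRSF11 at 18.8% and 17.2%.

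TRA2A and TRA2B, SR-like proteins that bind purine-rich enhancers, summed to 123.5 RPKM with ASC and 127.2 RPKM without. TRA2B stood at 94.8 and 101.1 RPKM, a log2 ratio of -0.09, and TRA2A at 28.8 and 26.1 RPKM, a log2 ratio of 0.14. Inclusion of the TRA2B premature-stop exon shown above was 58.8% of RPKM in both libraries. As a share of reads it was 62.4% (interval 61.0 to 63.7) with ASC and 66.2% (64.9 to 67.5) without, so the scale decides whether this exon differs. In TRA2A a 301-base exon found in no annotated coding transcript was included at 21.1% with ASC and 12.3% without, on 196.9 and 108.3 reads.

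All 4 CLK kinases were lower in the ASC library, and together they summed to 76.0 RPKM against 86.4 RPKM. CLK4 stood at 7.74 RPKM with ASC and 10.2 RPKM without, a log2 ratio of -0.36 and the lowest of the members that are not pseudogenes. Its log2 ratio of depth-scaled reads was -0.29 (interval -0.44 to -0.14). CLK1 stood at 22.3 and 26.2 RPKM (log2 ratio -0.22), CLK2 at 21.3 and 23.9 RPKM (-0.16), and CLK3 at 24.7 and 26.1 RPKM (-0.08). The read interval of CLK3, -0.13 to 0.08, held 0. By RPKM, CLK4 alone was over 20% lower. Its log2 ratio was -0.34 for protein-coding transcripts alone and -0.11 for its most abundant transcript alone. Part of the CLK4 difference in RPKM lay in transcripts with few reads, which are given with the transcript shares below. Protein-coding transcripts on their own were lower for CLK1, at 7.47 against 8.50 RPKM, and CLK4, at 3.46 against 4.65 RPKM, but higher for CLK2, at 8.60 against 8.46 RPKM, and CLK3, at 16.1 against 15 RPKM.

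CLK genes are known to be regulated through exon 4, whose skipping shifts the reading frame before the kinase domain. The exon sequences show that CLK1 and CLK4 are near copies here: 85 of 91 bases are the same, and capitals in these 2 mark the bases that differ. The exons of CLK2 and CLK3 are shown for comparison, and none of the 4 lengths is a multiple of 3.
CLK1 exon 4, chr2:200860125-200860215, minus strand: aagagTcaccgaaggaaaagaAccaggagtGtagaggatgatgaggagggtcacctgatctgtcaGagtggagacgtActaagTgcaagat
CLK4 exon 4, chr5:178617344-178617434, minus strand: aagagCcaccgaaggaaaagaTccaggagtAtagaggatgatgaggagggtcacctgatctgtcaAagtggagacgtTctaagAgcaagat
CLK2 exon 4, chr1:155268708-155268792, minus strand: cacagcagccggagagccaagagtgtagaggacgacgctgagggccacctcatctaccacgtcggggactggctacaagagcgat
CLK3 exon 4, chr15:74622120-74622216, plus strand: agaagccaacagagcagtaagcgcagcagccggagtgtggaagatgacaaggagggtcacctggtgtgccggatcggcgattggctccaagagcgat

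Exon 4 was included more in the ASC library in all 4 genes. Inclusion in CLK1 was 50.1% of RPKM with ASC and 39.0% without. The exon-4 transcripts of CLK1 stood at 6.81 and 7.57 RPKM and the skipping ones at 6.78 and 11.8 RPKM, so the difference lay mostly in the skipped form. In CLK2, counting both annotated forms of the exon, inclusion was 59.0% and 50.5%. CLK3 was at 82.3% and 74.9%, and CLK4 at 79.2% and 76.6%.

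Shares of reads gave the same direction in each. They were 53.1% (interval 49.7 to 56.5) with ASC against 41.9% (39.2 to 44.8) without for CLK1 and 61.2% (58.2 to 64.2) against 52.8% (49.9 to 55.7) for CLK2. For CLK3 they were 89.9% (87.8 to 91.6) against 85.1% (82.8 to 87.3), and for CLK4 87.7% (84.4 to 90.6) against 80% (76.7 to 83.1). In none of the 4 did the intervals overlap, to be read against the 32.8% of all skipped exons for which this held. By RPKM, 42.0% of all skipped exons differed by at least 5 points between the libraries and 19.6% by at least 10 points. These shares pool both directions. Exon 4 of CLK1 passed 10 points. So did the 85-base form of CLK2 taken alone, at 49.8% with ASC and 37.3% without.

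The CLK1 transcript without exon 4, ENST00000432425.5, showed the largest share difference of any transcript of these genes. It held 30.4% of CLK1 RPKM with ASC and 45.1% without, on 406.5 and 710.9 reads. The annotation classes it as a target of nonsense-mediated decay. Over all classes, decay transcripts held 30.8% of CLK1 RPKM with ASC and 45.4% without, and retained-intron transcripts 33.2% and 22%. In CLK4, decay transcripts held 27.7% and 33.4%, and in CLK3 12.9% and 18.4%. In CLK2 the form without exon 4, ENST00000476983.5, is classed as a processed transcript and held 28% with ASC and 35.0% without.

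**Figure D2:**
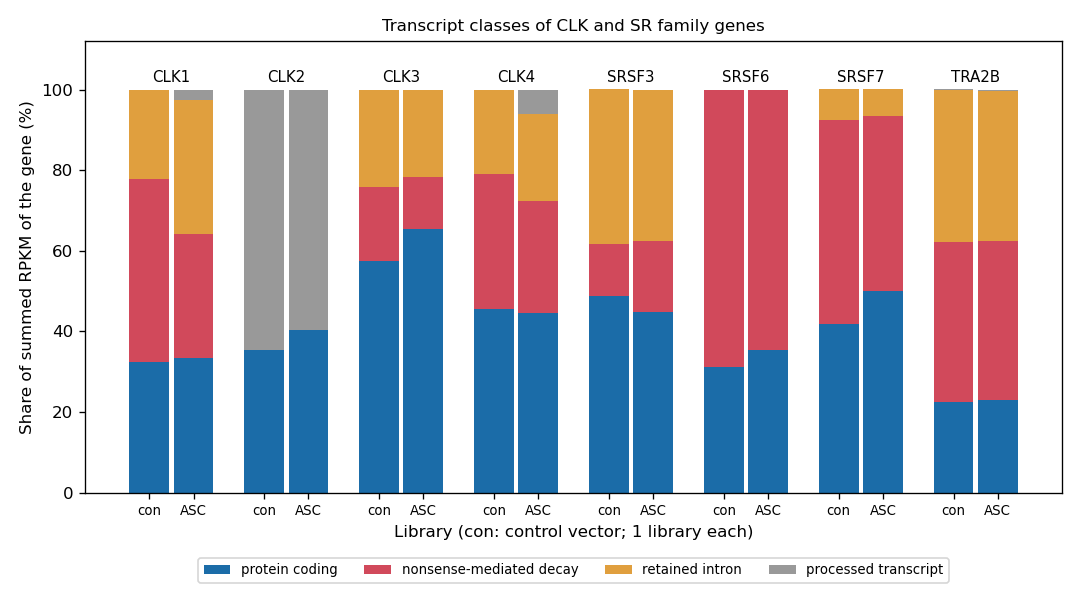
Share of each gene's summed RPKM, in percent, held by the annotation classes of its transcripts, for 4 CLK kinases, 3 SR genes and TRA2B; con is the control library, each bar is 1 library and colours mark the class. The decay share of CLK1 is 45.4% in the control library and 30.8% in the ASC library, and that of TRA2B differs by less than 1 point.

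The hnRNP genes were the most abundant family, at 3937.7 RPKM with ASC and 4179.8 RPKM without, and they did not lie to one side. Of 24 genes that are not pseudogenes, 22 were compared, 12 above 0 and 10 below, with a median of 0.02. The 2 others, the HNRNPC-like genes HNRNPCL1 and HNRNPCL2, had 0 reads with ASC and 2 and 1 reads without. The 22 compared include HNRNPA1P48, named like a pseudogene but not classed as one, at 17.4 and 19.8 RPKM (-0.18). Protein-coding transcripts held 0.00219% of HNRNPA1P48 RPKM with ASC and 0.00471% without. HNRNPA1, which represses exons and is the most abundant gene here, stood at 973.1 RPKM with ASC and 1176.2 RPKM without, a log2 ratio of -0.27 (read interval -0.28 to -0.25). HNRNPA2B1 stood at 430.5 and 477.2 RPKM (-0.15).

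The widest ratios of the family were those of HNRNPD and HNRNPH1. HNRNPD, the AU-rich element binding protein AUF1, stood at 175.5 RPKM with ASC and 141.6 RPKM without, a log2 ratio of 0.31 (read interval 0.28 to 0.37). Its neighbour and relative HNRNPDL stood at 193.4 and 166.4 RPKM (0.22), and HNRNPC, which binds uridine tracts, at 394.9 and 351.2 RPKM (0.17). HNRNPH1, which binds G-rich runs, stood at 267.0 and 323.6 RPKM (-0.28), and HNRNPM at 97.1 and 114.8 RPKM (-0.24). None was 25% higher or 20% lower. Most of the HNRNPH1 sum was assigned to transcripts annotated as retained intron, 74.6% with ASC and 77.2% without. Reads over introns were not measured. The protein-coding transcripts of HNRNPH1 alone stood at 58.6 and 63.2 RPKM, a log2 ratio of -0.11.

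Several hnRNP genes make protein isoforms by skipping coding exons, and the 4 exons given here differed by few points. HNRNPA2 and HNRNPB1 differ by a 36-base exon, which encodes the residues added in B1.
HNRNPA2B1 36-base exon, chr7:26197831-26197866, minus strand: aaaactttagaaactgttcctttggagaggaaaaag
This exon was included at 14.7% of RPKM with ASC and 17.8% without, and its share of reads was 17.6% (interval 17.1 to 18.1) against 21.4% (20.9 to 21.9). The 156-base exon of HNRNPA1, which lengthens its glycine-rich tail, was at 30.3% and 28.9%. In HNRNPD the 57-base and 147-base exons that make its protein isoforms were at 76.6% and 36.8% with ASC and 78.3% and 34.0% without. A 105-base exon of HNRNPDL found in no annotated coding transcript was at 25.8% and 20.3%, and decay transcripts of HNRNPDL held 20.9% and 16.5%.

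The widest exon difference among all these genes rested on little RNA. A 90-base exon of HNRNPH1 was at 99.6% with ASC and 58.4% without, but the transcripts that hold it made only 3.88 and 5.04 RPKM, and the 1 skipping transcript 0.0161 and 3.59 RPKM on 0.334 and 75.0 reads. In HNRNPM a 61-base exon was at 86.1% and 73.5%, with 34.0 and 79.5 reads in the skipping forms.

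HNRNPA1 shares sequence with many retrocopies. Of 521 windows of 100 bases taken along its transcripts, 42.6% occur unchanged in a transcript of another gene. All 41 pseudogenes together had 1321.5 reads with ASC and 1400.0 without, against 49232.7 and 58946.5 for HNRNPA1 alone. Only 6 of the 41 reached 1 RPKM. HNRNPA1P33, at 2.36 and 4.38 RPKM on 47.2 and 88.0 reads, had a log2 ratio of -0.68 and was the one member past 1.5-fold in either direction, where 2.38% of all genes were higher and 1.81% lower. HNRNPCP2 stood at 12 and 9.57 RPKM (0.30), and 7.0% of the HNRNPC windows occur in it.

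The PTBP proteins bind pyrimidine tracts, repress neuronal exons, and summed to 155.7 RPKM with ASC and 146.8 RPKM without. PTBP3, on chromosome 9, stood at 16.9 RPKM with ASC and 13.2 RPKM without. Its log2 ratio of 0.33 was the highest of the members, and that of its depth-scaled reads was 0.32 (interval 0.25 to 0.39) on 3772.1 and 3016.0 reads. PTBP1, the main form in non-neuronal cells, stood at 132.9 and 127.4 RPKM (0.06), and PTBP2, the neuronal form, at 5.80 and 6.18 RPKM (-0.08).

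A PTBP1 exon that separates its longer and shorter protein isoforms is shown as a further example of a skipped coding exon.
PTBP1 78-base exon, chr19:805492-805569, plus strand: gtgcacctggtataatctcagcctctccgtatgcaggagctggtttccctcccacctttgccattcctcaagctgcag
Inclusion was 55.6% of RPKM with ASC and 51.7% without, and 55.4% of reads (interval 54.4 to 56.3) against 50.5% (49.5 to 51.5). In PTBP2 the 34-base exon whose skipping by PTBP1 shifts the frame was at 57.3% and 56.9%. The coding transcript ENST00000370198.5 of PTBP2 held 10.2% of its RPKM with ASC and 20.3% without, on 64.2 and 137.4 reads. RBFOX2, which binds GCAUG and sets many epithelial exons, stood at 27.7 and 26.7 RPKM, a log2 ratio of 0.05.

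U2AF1 and U2AF2, the subunits that bind the 3′ splice site and the polypyrimidine tract, were both below 0. U2AF2 stood at 61.7 RPKM with ASC and 64.7 RPKM without (-0.07). U2AF1 stood at 31.4 and 39.9 RPKM, a log2 ratio of -0.34 and a read interval of -0.41 to -0.20. This value cannot be read on its own, because hg38 holds a second copy of the locus on chromosome 21, named U2AF1L5. Of the 100-base windows of U2AF1, 90.7% occur unchanged in U2AF1L5. U2AF1L5 stood at 56.1 RPKM with ASC and 42.6 RPKM without, a log2 ratio of 0.39, the other way. Summed, the copies stood at 87.5 and 82.5 RPKM, a log2 ratio of 0.08, and the log2 ratio of their depth-scaled reads was 0.01 (interval -0.05 to 0.08). The lower value of U2AF1 was thus absent from the sum.

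U2AF1 also has a pair of 67-base exons that replace one another in the U2AF1a and U2AF1b proteins. They are shown with the 23 bases that differ in capitals.
U2AF1 exon nearer the end of the gene, chr21:43100453-43100519, minus strand: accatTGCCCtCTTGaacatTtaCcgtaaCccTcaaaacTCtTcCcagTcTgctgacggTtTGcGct
U2AF1 exon nearer the start of the gene, chr21:43101366-43101432, minus strand: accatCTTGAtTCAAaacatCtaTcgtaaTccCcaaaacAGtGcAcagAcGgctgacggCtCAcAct
Of 12 listed U2AF1 transcripts, 6 hold both exons and are left out here. Among U2AF1 transcripts with only 1 of the pair, the exon nearer the end held 96.3% of RPKM with ASC and 92.5% without. Over U2AF1 and U2AF1L5 together it held 90.7% and 89.2%.

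The SF3A and SF3B subunits chosen by name belong to the part of the U2 particle that holds the branch site. They summed to 632.8 RPKM with ASC and 661.4 RPKM without. Of 9 genes, 3 were above 0 and 6 below, with a median log2 ratio of -0.04. SF3B6, which contacts the branch region, stood at 115.5 and 142.7 RPKM, a log2 ratio of -0.30 (read interval -0.39 to -0.25). SF3B4 stood at 24.7 and 21.3 RPKM (0.20), SF3A2 at 38.0 and 42.9 RPKM (-0.17) and SF3B2 at 108.2 and 96.9 RPKM (0.16). SF3B1, the largest subunit and a frequent target of mutation in cancer, stood at 80.7 and 83.3 RPKM (-0.04). All 9 lay between the bounds of 20% lower and 25% higher. PHF5A, which sits beside SF3B1 but lies outside the name rule, did not, at 42.1 and 32.7 RPKM (0.35). Retained-intron transcripts, held 65.0% of SF3B3 RPKM with ASC and 65.7% without, but only 20.1% and 19.5% of its reads.

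**Figure D3:**
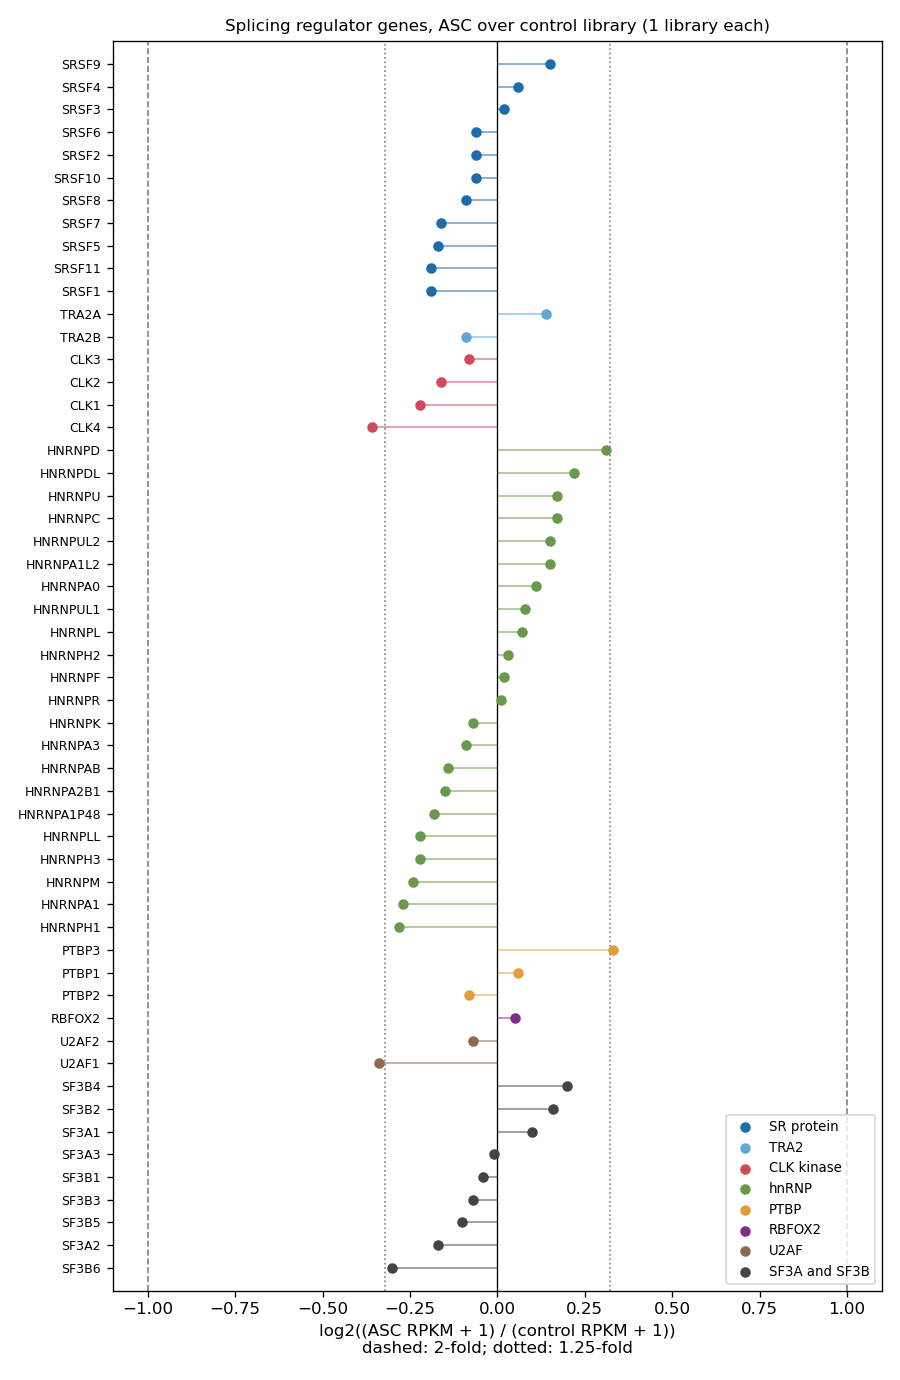
Log2 ratio of (RPKM + 1), ASC over control library, for the 54 compared splicing regulators that are not pseudogenes, grouped by family (colours); dashed lines mark 2-fold and dotted lines 25% higher and 20% lower. PTBP3 lies beyond the dotted line on the right, and CLK4 and U2AF1 beyond it on the left; the U2AF1 point does not include its copy U2AF1L5.

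Within genes, transcript shares also moved less than over the whole table. A share is the percentage of the gene's summed RPKM, taken for genes with at least 2 transcripts and 50 reads in each library. Of 620 transcripts of 50 splicing regulators, 3 (0.484%) differed by at least 10 points, against 4.62% of 105038 transcripts of all genes. They were the CLK1, SRSF2 and PTBP2 transcripts given above, all with a smaller share in the ASC library. By gene, 3 of 50 (6.0%) held such a transcript, against 24.9% of 11205 genes. None reached 20 points, against 0.945% of all transcripts and 6.05% of all genes. At 5 points there were 24 transcripts, 11 larger and 13 smaller, against 12.9% of all transcripts, in 14 of 50 genes (28%), against 54.9% of all genes. Just under 10 points were 3 CLK4 transcripts, ENST00000611575.4, ENST00000520199.5 and ENST00000522136.5, which held 0.370%, 0.143% and 8.82% with ASC and 10.1%, 9.74% and 17.4% without. By shares of reads the differences were smaller for the first and the second, -5.40 and -3.78 points, on 44.4 and 30.5 reads in the control library. The median over genes of the largest shift was 3.14 points, against 5.58 points for all genes, at the greater depth given above.

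Among genes with decay transcripts, the median share they held was higher for the splicing regulators than for all genes. In the 34 with such a transcript the median share was 7.92% with ASC and 7.24% without, against 4.04% and 4.0% over 4832 genes. The share was higher in the ASC library in 14 of the 34 and lower in 20. It was at least 5 points lower in 4 of them, CLK1, SRSF7, CLK4 and CLK3, where 9.23% of all genes were, and at least 5 points higher in none, where 9.54% were. Nearest on the higher side were SRSF3, at 17.6% with ASC and 12.9% without, and HNRNPDL, given above. Retained-intron shares differed by at least 5 points in 1 of 37 genes, CLK1, which was higher, where 6.37% of all genes were higher and 10.4% lower. With both classes summed, 3 of 41 were at least 5 points lower, SRSF7 by 8.22, CLK3 by 7.79 and CLK4 by 5.04 points, and none was higher, where 13.4% of all genes were lower and 9.58% higher. CLK1 leaves this group since its retained-intron share was higher. Nearest on the higher side were HNRNPDL, by 4.36 points, and U2AF2, by 4.23 points. In U2AF2 the coding transcript ENST00000308924.8 held 16.5% with ASC and 23.7% without.

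**Figure D4:**
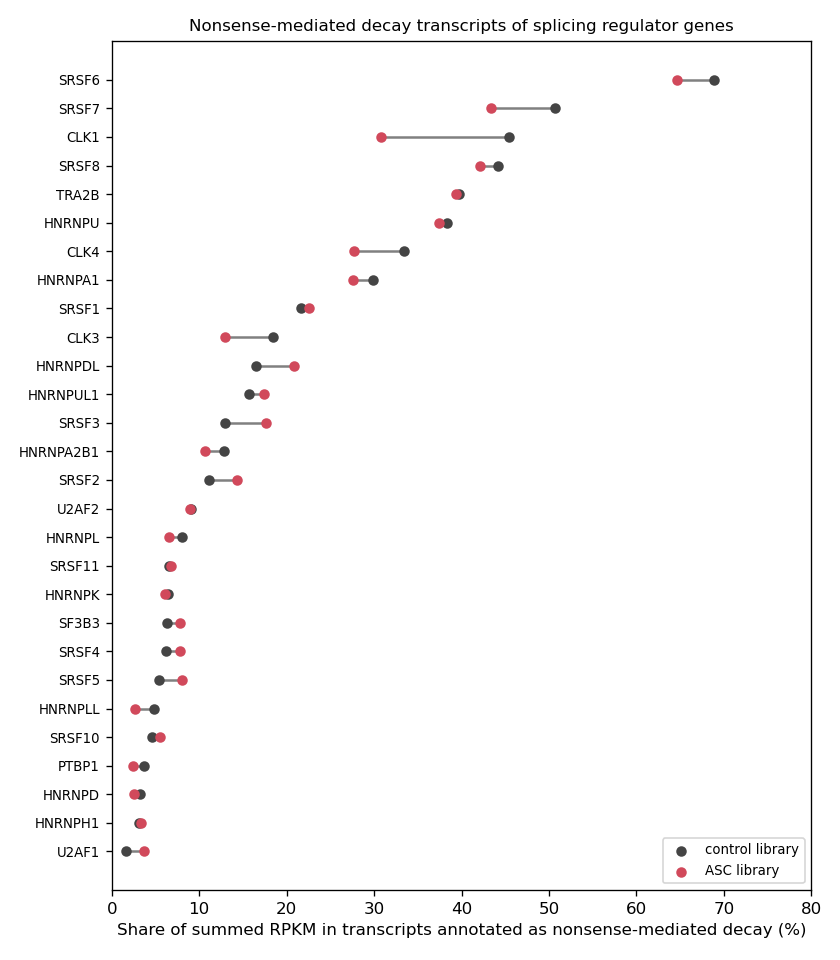
Share of each gene's summed RPKM in transcripts annotated as nonsense-mediated decay targets, in percent, for splicing regulators whose shares in the 2 libraries add up to at least 2%; dark points are the control library and red points the ASC library, 1 library each. The longest line is that of CLK1, from 45.4% to 30.8%, and the lines of SRSF3 and HNRNPDL run the other way.

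Skipped exons were compared in the same way. Of 80 exons in 36 of these genes, 8 were included at least 10 points more in the ASC library and 1 at least 10 points less. Together they made 11.2%, against 19.6% of all skipped exons. The share of all skipped exons was not split by direction, so the uneven split has no background here. They lie in 6 genes, and CLK4 alone has 4 of them, which share transcripts and are not separate observations. The one included less was a 411-base exon of PTBP1, at 83.4% with ASC and 96.3% without, in a form of 2.18 and 1.40 RPKM. The 12 exons with an annotated premature stop, in 11 genes, did not move together: 7 were included more and 5 less. Among them, HNRNPL was at 7.87% with ASC and 9.53% without, U2AF2 at 11.4% and 9.69%, and SF3B3 at 25% and 20.5%.

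**Figure D5:**
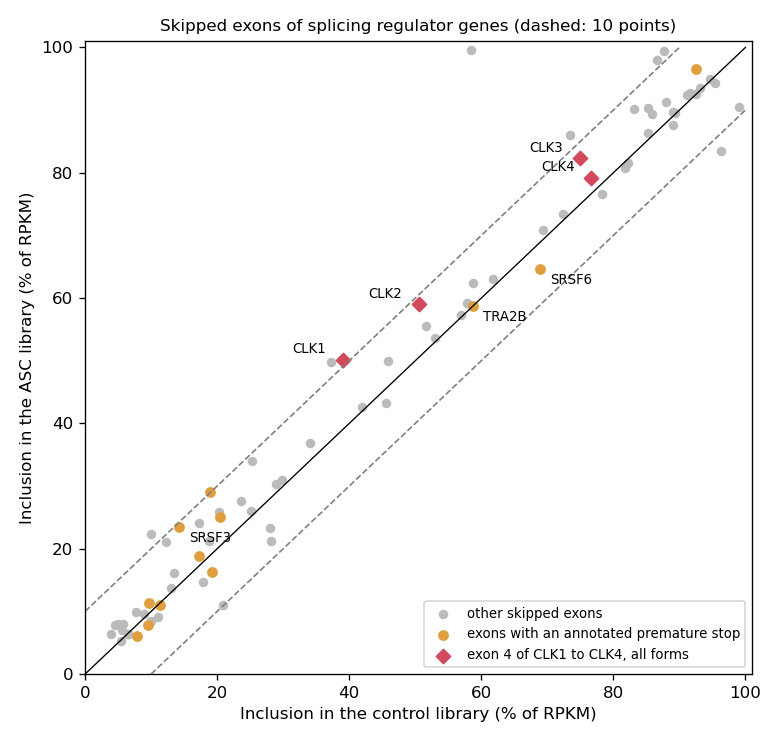
Inclusion of skipped exons of splicing regulators, in percent of the RPKM of transcripts that hold or skip the exon, control library on the horizontal axis and ASC library on the vertical axis; diamonds are exon 4 of CLK1 to CLK4 with all annotated forms, orange points exons with an annotated premature stop, and dashed lines lie 10 points from equal inclusion. The 4 diamonds lie above the line of equal inclusion, and the orange points lie on both sides of it.

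Among other genes of the splicing pathway none was 2-fold higher or lower, where 0.617% and 0.265% of all genes were. Of the 7 SR protein kinases and phosphatase subunits compared, 4 were above 0 and 3 below. The SR protein kinase SRPK1 stood at 62.5 RPKM with ASC and 57.7 RPKM without, and DYRK1A at 9.38 and 7.5 RPKM (0.29). Of 39 other splicing regulators, 19 were above 0 and 20 below. The widest was TIA1, which binds uridine-rich introns near 5′ splice sites, at 22.3 RPKM with ASC and 37.6 RPKM without, a log2 ratio of -0.73. CELF2 stood at 11.1 and 7.91 RPKM (0.44). Of 40 other core spliceosome genes, 20 were above 0 and 20 below, with PHF5A, which sits beside SF3B1, at 42.1 and 32.7 RPKM (0.35). Of 15 genes of nonsense-mediated decay and the exon junction complex, 10 were above 0 and 5 below, with a median of 0.08. UPF1, the helicase of that pathway, stood at 28.4 and 26.8 RPKM, and MAGOHB at 13 and 10.0 RPKM (0.34).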

How the data were processed

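The authors deposited 1 table with estimated counts of reads per transcript and, per the file headers, RPKM values of both libraries. Per the submitters' processing notes the build was hg38. The sources used here do not give the aligner, the quantifier or the gene annotation. The deposited RPKM values equal reads over transcript length and over a constant of the library. Transcript classes, exons and sequences came from GENCODE release 29 (664 of 667 transcripts with the same version), and printed ends are the stop minus 1. A spreadsheet had turned 285 gene names into dates, of which 284 were restored and 0 were splicing regulators.

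RPKM was summed per gene, a gene was compared if either library had at least 1 RPKM, and the log2 ratio used a pseudocount of 1 RPKM. Intervals used rounded estimated reads. Exon inclusion and the search for shared 100-base windows (1 every 25 bases) were added after the gene values had been seen. Steps were tested on simulated data. The genes and lists were chosen with earlier results of these data known. Full values are given for the most abundant gene of each family, up to 4 genes per family with the widest ratio, members 25% higher or 20% lower and the widest transcript and class differences.

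Alternatives were pseudocounts of 0.1 and 3, no filter or 5 RPKM, median centring, TMM scaling of the counts with edgeR 4.0.16, CPM, the highest transcript, protein-coding transcripts only, a fold of 1.5 and a difference of 25% up or 20% down, share thresholds of 5 and 20 points, and shares of reads. Software was R 4.3.3 and Python 3.11.15, with scipy 1.17.1, numpy 2.4.6, pandas 2.3.3 and matplotlib 3.10.9.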

Additional observations from a re-analysis of the deposited data

How the results depend on the processing

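No paired analysis was possible because each group has 1 library, which also leaves no replicate to leave out. Of 60 recomputed counts over the splicing regulators and the other lists, 48 stayed within 1.5 times and 12 did not, 9 of them where the threshold itself was changed. Splicing regulators at 1.5-fold numbered 0 higher and 1 lower, and at 25% up or 20% down 1 higher and 3 lower, against 0 and 0 at 2-fold. At that smaller difference the other splicing regulators gave 1 higher and 1 lower, the core spliceosome 1 higher, and the decay and exon junction genes 1 higher. Transcripts with a shifted share numbered 24 at 5 points and 0 at 20 points, against 3 at 10 points. The 3 genes with a lower share of decay and retained-intron transcripts became 1 by shares of reads and 0 with retained introns only, which gave 1 higher. Of single values, 508 were classed as the same and 68 as moved. The limit for most was the distance from the middle to the end of their counting interval, and for counts of genes below 0 it was 1.5 times. The 508 include the changes of filter, which cannot move the ratio of a gene, so this number does not measure how stable the values are. Median centring, TMM or CPM turned the sign of 4 of the 60 compared genes, none with a ratio beyond 0.06 from 0. Protein-coding transcripts alone turned CLK2, CLK3, SF3A3, SRSF6 and SRSF7 to higher and SRSF3 to lower. Using only the most abundant transcript turned 10 genes, among them SRSF7 to 0.16, SRSF10 to 0.14, SRSF3 to -0.15 and PTBP1 to -0.10, and took CLK1 from -0.22 to -0.72. The sum with U2AF1L5, chosen after seeing the data, took U2AF1 from -0.34 to 0.08. Depth limits the exon values with skipping forms under 100 reads, such as those of HNRNPH1 and HNRNPM.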
